A study of Rattus norvegicus with 4 samples.

Results

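The genes described here are 10 markers of the mesothelium and of the epicardium, the mesothelial layer that covers the heart. They were chosen by symbol: Krt7, Krt8, Krt18, Krt19, Msln, Lrrn4, Upk1b, Upk3b, Wt1 and Tbx18. All 10 had a row among the 16290 genes of the deposited table. Of these, 9 reached a value of 10 in 2 or more libraries and entered the test, with 12838 genes in all, and Upk3b did not. The sequenced RNA came from neonatal rat heart muscle cells in culture, labelled as stage P3, that had received an adenovirus vector. The vector encoded mock in the 2 control libraries, called Mock 1 and Mock 2, and the pyruvate dehydrogenase kinase Pdk3 in the 2 others, called Pdk3 1 and Pdk3 2. Both groups therefore carried a virus, and both grew in the same serum-containing medium. The sources used here give neither the promoter of the vector nor the share of cells it reached. The labels name cardiomyocytes only, and say nothing of how far the cultures were cleared of other heart cells.

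Mesothelial cells are flat epithelial cells that line the body cavities and wrap the organs in them. Like other simple epithelia they build their intermediate filaments from a type II keratin paired with a type I keratin, and they carry surface proteins such as mesothelin. In the embryonic heart, epicardial cells express the transcription factors Wt1 and Tbx18, and some of them lose their epithelial form and give rise to fibroblasts and mural cells of vessels.

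Values are read counts per gene, normalised between libraries by the authors and rounded. Totals lay between 4448199 and 4476649 per library, from an estimated 4139110 to 4707141 reads in genes. The libraries of a group differed by less than counting noise: over genes with at least 50 reads in a pair, the mean chi-square per gene was 0.581 for the mock pair and 0.568 for the Pdk3 pair, where independent counting gives 1. The labels do not say whether the libraries of a group came from separate cultures, so p-values reflect the spread of these libraries alone, and that spread may be technical. Pdk3 itself stood at 396 in Mock 1, 411 in Mock 2, 1218 in Pdk3 1 and 1177 in Pdk3 2. Cardiomyocyte markers were well covered, with 7 of 7 genes found in the table also tested and summed values of 19420 to 20227 per library, so the labelled cell type was present. Values grow with transcript length, so levels are compared between libraries for 1 gene and not between genes.

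Of the 9 members tested, 2 were lower in the Pdk3 libraries, the keratin gene Krt19 and the membrane protein gene Lrrn4, and 0 were higher (limma, adjusted p below 0.05). At an unadjusted limma p below 0.05 the counts were 3 lower and 0 higher, the third being Tbx18. That unadjusted threshold was met, in either direction, by 4671 of the 12838 genes tested. By an exact binomial test of the summed reads, at the same unadjusted threshold, the members' counts were 2 and 0. The share over all genes is not given for the binomial test. At the adjusted threshold, limma called 11.3% of all genes tested lower and 11.7% higher. Among the 4579 genes whose mean value lay within the range of the tested members, 7.14% were lower and 8.12% higher. The median log2 fold change of the 9 members was 0.09, against -0.01 for all genes tested, with 5 members above 0 and 4 below. With p floored at counting noise, that is with limma's p replaced by the binomial p where the latter is larger, the members' counts were again 2 lower and 0 higher, against 7.45% and 8.39% of all genes tested. Summed over the 10 members, values were 695 and 683 in the mock libraries and 604 and 601 in the Pdk3 libraries. Without Krt19 and Lrrn4 the sums of the other 8 were 511 and 506 against 505 and 498.

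**Figure D1:**
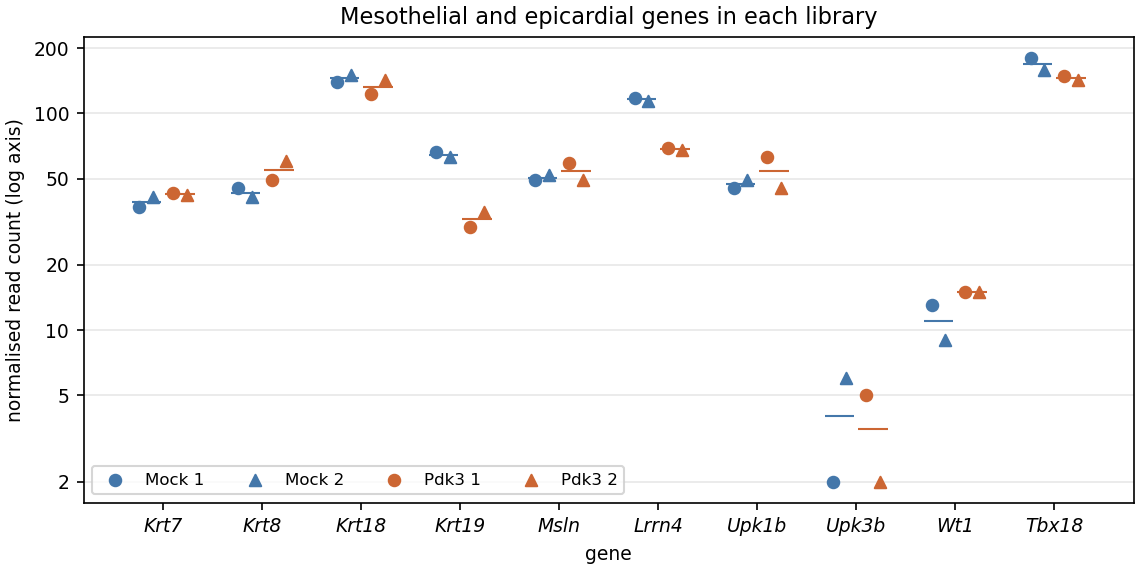
Normalised read count (log axis) of the 10 genes in each of the 4 libraries, with circles for replicate 1, triangles for replicate 2 and bars for group means. Krt19 falls from 66 and 63 to 30 and 35, and Lrrn4 from 118 and 114 to 69 and 68, while the other genes lie close together or overlap.

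The keratins include both partners of the simple-epithelial filament. Krt19 encodes the smallest type I keratin, which lacks the tail domain of the others. The gene (ENSRNOG00000014233) lies on chromosome 10 at 88055841 to 88060561 of build rn6, minus strand. Its value was 66 in Mock 1, 63 in Mock 2, 30 in Pdk3 1 and 35 in Pdk3 2. Both Pdk3 libraries lay well below both mock libraries. The mean went from 64.5 ± 2.12 to 32.5 ± 3.54 (SD, n = 2 each), a fall of 49.6%. The log2 fold change was -0.97 ± 0.15 (SE, limma adjusted p = 0.00406). Counting error alone allowed a ratio of Pdk3 to mock between 0.369 and 0.689 (exact 95% interval). Over the table, 0.576% of all genes tested changed downward by as much or more.

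Krt18, the other type I keratin of the set and the usual partner of Krt8, had values of 140 and 150 in the mock pair and of 123 and 142 in the Pdk3 pair. The groups overlapped. The log2 fold change was -0.13, with a 95% interval of -0.35 to 0.09 (limma adjusted p = 0.362). Krt18 lies on chromosome 7 at 143629455 to 143633131, plus strand. The ratio of Krt19 to Krt18 was 0.471 and 0.42 in the mock libraries and 0.244 and 0.246 in the Pdk3 libraries. That ratio was lower in both Pdk3 libraries, by 0.86 on the log2 scale. With 2 libraries against 2, a two-sided exact permutation test cannot go below p = 0.333, and it gave 0.333 for this ratio.

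The type II keratins stood slightly higher, with neither past the threshold. Krt8 (chromosome 7, 143596511 to 143603803, minus strand) had values of 45 and 41 with mock and of 49 and 60 with Pdk3. The groups did not overlap, but they came close, and the log2 fold change was 0.33 with an interval of -0.04 to 0.70 (limma adjusted p = 0.181). Krt7 (chromosome 7, 143059764 to 143075907, plus strand), which is typical of ducts and mesothelium, had values of 37 and 41 against 43 and 42. Its log2 fold change was 0.12, with an interval of -0.24 to 0.48 (limma adjusted p = 0.611). The ratio of Krt7 to Krt19 rose in both Pdk3 libraries, from 0.561 and 0.651 to 1.43 and 1.2, and that of Krt8 to Krt18 went from 0.321 and 0.273 to 0.398 and 0.423. The exact permutation test again gave p = 0.333 for each, the smallest it allows, also when adjusted over the 5 ratios computed.

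Of the 4 genes of surface proteins, 3 were tested and 1 passed the threshold. Lrrn4 encodes a membrane protein with leucine-rich repeats that is used as a mesothelial marker. The gene (ENSRNOG00000032989) lies on chromosome 3 at 125523781 to 125533600, minus strand. Its values were 118 in Mock 1, 114 in Mock 2, 69 in Pdk3 1 and 68 in Pdk3 2. Here the libraries of each group lay very close together, and the groups were far apart. The mean went from 116.0 ± 2.83 to 68.5 ± 0.707 (SD, n = 2 each), a fall of 40.9%, with a log2 fold change of -0.75 ± 0.10 (SE, limma adjusted p = 0.00186). The counting interval of the ratio was 0.473 to 0.734. A log2 fold change as low or lower was found for 1.46% of all genes tested.

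Msln encodes mesothelin, the glycosylphosphatidylinositol-anchored protein that gives mesothelium one of its standard markers. Its values were 49 and 52 in the mock libraries and 59 and 49 in the Pdk3 libraries (chromosome 10, 15119663 to 15125408, minus strand). The groups overlapped, and the log2 fold change of 0.09 had an interval of -0.26 to 0.44 (limma adjusted p = 0.706). The ratio of Lrrn4 to Msln was 2.41 and 2.19 in the mock libraries and 1.17 and 1.39 in the Pdk3 libraries, and that of Lrrn4 to Tbx18 was 0.656 and 0.722 against 0.466 and 0.476 (exact permutation p = 0.333 for both, the smallest possible).

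Uroplakins are membrane proteins of the bladder lining, and Upk1b and Upk3b are also expressed by mesothelium. Upk1b, a tetraspanin, had values of 45 and 49 with mock and of 63 and 45 with Pdk3 (chromosome 11, 64522130 to 64553228, plus strand). Pdk3 1 was the high library, and Pdk3 2 lay within the mock values. The log2 fold change was 0.18, with an interval of -0.25 to 0.61 (limma adjusted p = 0.531). Without Pdk3 1 it was -0.06, and that of Msln was -0.04. Upk3b (chromosome 12, 23676152 to 23682381, minus strand) had values of 2 and 6 against 5 and 2, near the limit of detection. At this depth a difference in Upk3b was not detectable, since counting error alone allowed ratios between 0.298 and 3.05.

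Neither of the transcription factors passed the threshold. Wt1, the Wilms tumour zinc finger factor, had values of 13 and 9 with mock and 15 and 15 with Pdk3 (chromosome 3, 95133713 to 95180564, plus strand). These are few reads, and the log2 fold change of 0.44 had an interval of -0.23 to 1.11 (limma adjusted p = 0.321). Tbx18, a T-box factor also expressed in mural cells, had values of 180 and 158 against 148 and 143 (chromosome 8, 95359354 to 95387363, minus strand). Both Pdk3 libraries lay below both mock libraries. The log2 fold change was -0.21 ± 0.09 (SE), with a limma p of 0.0391 and an adjusted p of 0.116. Tbx18 did pass, at -0.28 on the log2 scale, when the libraries were scaled to equal medians of ribosomal protein genes (limma adjusted p = 0.0203). That scaling moved the median gene from -0.01 to -0.07, and 25.4% of all calls were then higher, against 50.8%.

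**Figure D2:**
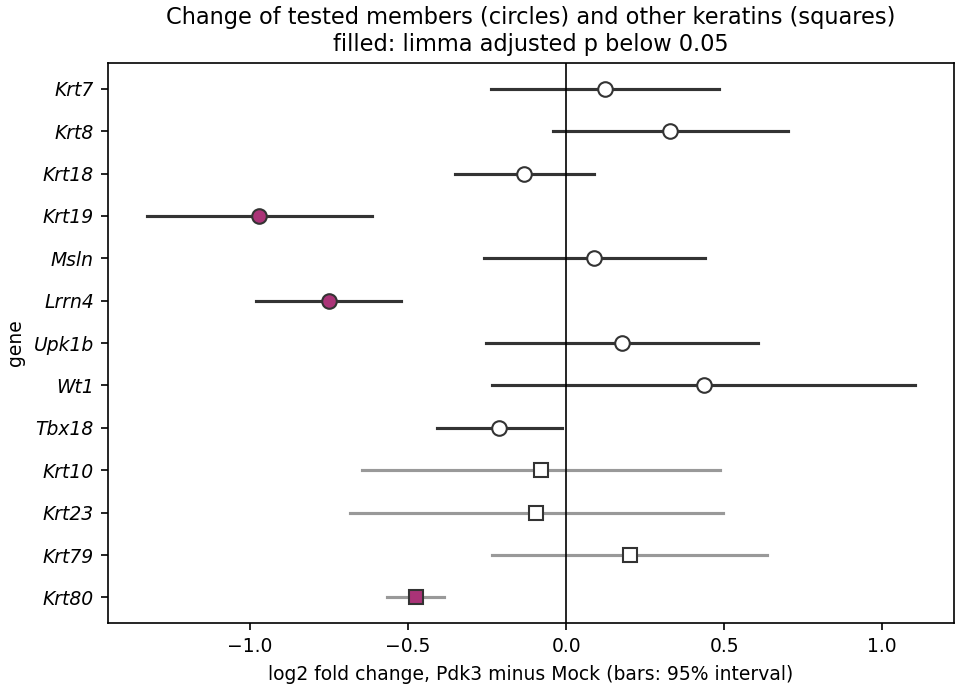
Log2 fold change, Pdk3 minus Mock, of the 9 tested members (circles) and 4 other tested keratins (squares), with 95% intervals from limma. Only Krt19, Lrrn4 and Krt80 are past the threshold (filled), and all 3 lie below 0.

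Counted by position alone, 3 of the 10 members were lower in both Pdk3 libraries than in both mock libraries (Krt19, Lrrn4 and Tbx18), 3 were higher in both (Krt7, Krt8 and Wt1) and 4 overlapped. Over all genes tested 31.1% were lower and 29.9% higher by this count, 61.0% in all. The members' shares are near that background. The 95% intervals of the log2 fold change reached up to -0.62 for Krt19 and -0.52 for Lrrn4. Of the 7 other tested members, Tbx18 had the lowest bound, -0.41.

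**Figure D3:**
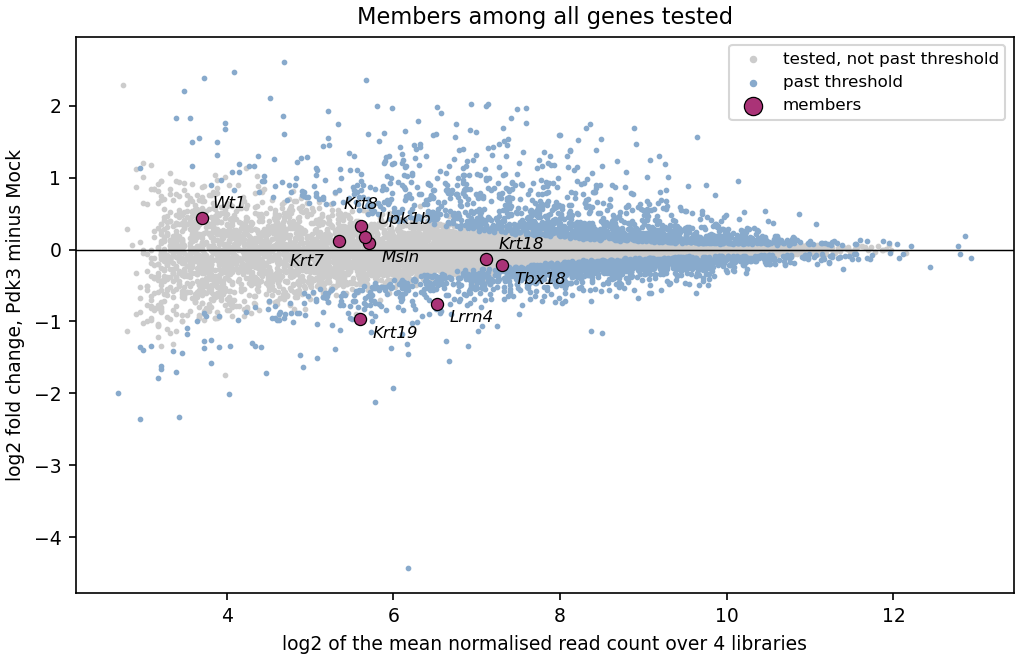
Log2 fold change against the log2 mean normalised read count of the 12838 genes tested, with genes past the threshold in blue and the 9 tested members in purple. Krt19 and Lrrn4 lie at the lower edge of the cloud and the 7 other members inside it or at its border.

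The call of Krt19 and Lrrn4 rests on all 4 libraries. When 1 library was left out, whichever it was, the fit kept 1 residual degree of freedom and limma called 0 members and 0 genes over the whole table. These fits leave 1 library in a group, so only effect sizes are given for single genes. The log2 fold change of Krt19 ranged from -1.08 to -0.86 and that of Lrrn4 from -0.78 to -0.73. Tbx18 ranged from -0.31 to -0.12 and Krt18 from -0.23 to -0.03. Ranges above 0 were 0.19 to 0.68 for Wt1, 0.19 to 0.47 for Krt8 and 0.05 to 0.19 for Krt7. Those of Upk1b (-0.06 to 0.42) and Msln (-0.04 to 0.22) crossed 0.

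Of genes with a symbol that begins with Krt, 25 were in the table and 8 were tested. Among the 4 tested keratins that are no members, the type II keratin gene Krt80 fell from 479 and 469 to 340 and 341, by -0.48 ± 0.04 on the log2 scale (SE, limma adjusted p = 0.000199). Krt10, a keratin of differentiating epidermis, had values of 23 and 26 against 28 and 19, Krt23 of 18 and 17 against 14 and 19, and Krt79 of 38 and 32 against 36 and 45. Their log2 fold changes were -0.08, -0.09 and 0.20, and none of these 3 passed. The other 17 genes of this count stayed below 10 in every library. Of the other uroplakins, Upk1a had values of 2 to 7 and Upk3a was at 0 in every library.

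By position, Krt8 and Krt18 lie next to each other, 25.7 kb apart and transcribed away from each other, and Krt7 lies 521.0 kb from Krt8. Krt80, which fell, is a neighbour of Krt7, which did not pass. Krt19 sits in a cluster of type I keratins, and the 5 other genes of the table within 100 kb of it (Krt15, Krt17, Krt31, Krt32 and Krt36) all had too few reads for a test. Of the 4 genes within 100 kb of Lrrn4, 3 were tested. Crls1, which encodes cardiolipin synthase and lies 1340 bases from Lrrn4 on the opposite strand, with the 3′ ends of both genes facing each other, stood at -0.21 on the log2 scale (limma adjusted p = 0.0951). Mcm8, a helicase gene of DNA repair, rose by 1.14 (limma adjusted p = 0.000992), and Trmt6 had -0.04 (limma adjusted p = 0.712). No row of the table overlaps a member, so reads of an overlapping or antisense gene of the table were not at issue, whereas reads shared with near-identical copies of a keratin gene could not be checked.

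Promoter sequences were found for 7 of the 10 members in the RefSeq table of build GRCr8, a later build than that of the counts. Those of Lrrn4, which fell, and of Upk1b, which did not pass, are shown because they hold the same pair of motifs, and those of Krt8 and Krt18 because they serve the neighbouring partner keratins. Each runs from 250 bases before to 50 bases after the start, and capitals mark every match, on either strand, to a searched motif. These were the TATA box (TATAAA), the CCAAT box (CCAAT), the GC box (GGGCGG), the site of TEAD factors (GGAATG), of AP-1 (TGANTCA), of T-box factors (AGGTGTGA), of Snail and Zeb (CAGGTG) and of EGR and WT1 (GCGGGGGCG).
Lrrn4 (chr3:140603937-140604236, minus strand): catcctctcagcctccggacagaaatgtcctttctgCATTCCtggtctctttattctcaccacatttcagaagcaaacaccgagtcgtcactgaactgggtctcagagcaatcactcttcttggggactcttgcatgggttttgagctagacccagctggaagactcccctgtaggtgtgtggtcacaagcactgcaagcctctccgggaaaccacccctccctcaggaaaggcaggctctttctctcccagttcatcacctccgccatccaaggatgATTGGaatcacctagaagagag
Upk1b (chr11:75459131-75459430, plus strand): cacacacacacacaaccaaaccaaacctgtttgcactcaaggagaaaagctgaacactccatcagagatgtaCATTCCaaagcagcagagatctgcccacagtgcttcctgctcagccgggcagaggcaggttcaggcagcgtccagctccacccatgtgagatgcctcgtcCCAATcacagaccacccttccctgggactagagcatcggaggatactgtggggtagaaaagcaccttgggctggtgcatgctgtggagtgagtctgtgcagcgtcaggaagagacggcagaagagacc
Krt8 (chr7:135010290-135010589, minus strand): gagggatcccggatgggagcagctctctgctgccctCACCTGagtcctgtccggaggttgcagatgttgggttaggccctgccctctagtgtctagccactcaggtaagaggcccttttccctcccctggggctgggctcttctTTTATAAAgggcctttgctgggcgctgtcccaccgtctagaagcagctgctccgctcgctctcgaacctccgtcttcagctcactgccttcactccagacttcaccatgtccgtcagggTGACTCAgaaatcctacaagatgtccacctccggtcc
Krt18 (chr7:135035918-135036217, plus strand): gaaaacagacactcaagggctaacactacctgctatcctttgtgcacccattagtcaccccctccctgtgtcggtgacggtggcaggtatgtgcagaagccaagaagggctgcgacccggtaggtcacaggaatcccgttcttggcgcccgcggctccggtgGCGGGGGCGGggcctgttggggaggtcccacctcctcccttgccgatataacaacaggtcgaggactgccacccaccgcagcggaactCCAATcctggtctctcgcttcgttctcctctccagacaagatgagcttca

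The Lrrn4 promoter held 1 match to the TEAD site, read on the opposite strand, at -214 to -209 from the start, and 1 reversed CCAAT box at 28 to 32. The Upk1b promoter held both motifs as well. Over the 27457 promoters of this length, 13.9% held the TEAD site and 37.7% a CCAAT box. Krt8 held a TATA box (14.3% of promoters) that matched on both strands with overlap, an AP-1 site (7.33%) and a Snail and Zeb E-box (18.7%). In the Krt8 window the letters atg stand at the start. That start may therefore be the first codon and not the start of the transcript. The AP-1 match, at 13 to 19, lies downstream of it and may be coding sequence. Krt18 held a CCAAT box, a GC box (34.9%) and, overlapping the GC box, an EGR and WT1 site (2.78%). The T-box site was in 0 of the 7 member promoters and in 1.1% of all. A match describes letters in this window and shows no binding.

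Counts for other genes tied to mesothelium and epicardium are set against 11.3% lower and 11.7% higher over all genes tested (limma). Of 22 listed genes, 18 were in the table and 13 were tested, with 2 lower and 0 higher and a median log2 fold change of -0.02. Thbd, the thrombomodulin gene, expressed by mesothelium and endothelium, fell from 201 and 209 to 103 and 92, a change of -1.07 ± 0.09 on the log2 scale (SE, limma adjusted p = 0.000186). Slpi, a secreted protease inhibitor, fell from 64 and 62 to 40 and 35 (-0.74 ± 0.15 SE, limma adjusted p = 0.0107). Another 5 genes of this list stayed below 10 in every library: Cdh1, Cldn1, Dmkn, Nkain4 and Rspo1. Among 12 tested transcription factors of the epicardium, 1 was higher and 0 were lower. Tbx20, a T-box factor that cardiomyocytes also express, stood 0.12 higher on the log2 scale (limma adjusted p = 0.0201), and its call ended with p floored at counting noise (adjusted p = 0.0716).

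Genes of epithelial junctions and identity gave 2 higher and 3 lower among 16 tested, with a median of -0.07. The share over all genes tested, for this and the next list, was 11.7% higher and 11.3% lower (limma). The tight junction genes Marveld2 and Ocln rose, from 31 and 35 to 49 and 62 and from 35 and 37 to 65 and 51. The lower ones changed little, with log2 fold changes of -0.19 for Llgl2 and Patj and -0.09 for Tjp1. Some genes of this list that were not called are given by their values. Epcam, an epithelial adhesion gene, had 0 and 0 in the mock libraries and 1 and 2 in the Pdk3 libraries, and Cdh1, the E-cadherin gene, had 8 and 3 against 2 and 1. Esrp1, an epithelial splicing factor gene, had 44 and 52 against 44 and 39, and Cgn, the cingulin gene of tight junctions, had 372 and 348 against 356 and 354. Esrp2 had 24 and 19 against 10 and 14 and did not pass (limma adjusted p = 0.0750). By sign, 12 of the 16 tested genes of this list lay below 0 and 4 above, against about 51.5% of all genes tested below 0. Some of the 12 were close to 0, such as Cgn at -0.02. Among 10 tested genes of desmosomes and of the linker proteins that anchor intermediate filaments, 1 was higher and 4 were lower. In that list 5 genes lay below 0 and 5 above. Ppl, the periplakin gene, stood at -0.52 on the log2 scale (limma adjusted p = 0.0292), while Dst, Jup and Dsp lay between -0.12 and -0.07 and Macf1 at 0.05.

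Genes of the epithelial to mesenchymal transition gave 2 higher and 2 lower among 16 tested, with a median of -0.02. Here too the share over all genes tested was 11.7% higher and 11.3% lower (limma). Snai2, a repressor of epithelial genes, rose from 41 and 31 to 66 and 54, by 0.73 ± 0.19 on the log2 scale (SE, limma adjusted p = 0.0296), and Vim, an intermediate filament gene of mesenchymal cells, rose by 0.15. Tgfbr3, a co-receptor for transforming growth factor beta, fell from 959 and 966 to 731 and 693, and Tgfbr2 had a log2 fold change of -0.30. Of 21 tested signals that the epicardium secretes, 3 were higher and 3 lower, with a median of -0.05. Wnt5a fell from 781 and 757 to 563 and 583, and Igf2, a growth factor gene, from 59 and 57 to 38 and 32. Pdgfc, Pdgfd and Fstl1 had log2 rises of 0.26, 0.23 and 0.17. The fall of Tgfb1 by 0.18 did not hold with p floored at counting noise (adjusted p = 0.150). Of the genes named in these lists and Krt80, 8 rows kept their call under each alternative run on them with all 4 libraries, a threshold of 0.01 among these: Thbd, Tgfbr3, Wnt5a, Cnn1, Cdh5, C1qa, Krt80 and 1 of 2 rows of the globin gene Hba-a2, which was too low for the minimum of 50. Among these alternatives, that threshold alone ended the call of Slpi. The calls of Marveld2, Ocln, Snai2, Vim, Pdgfc, Pdgfd and Fstl1 ended when the intensity trend was dropped, and also when low values were not filtered.

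**Figure D4:**
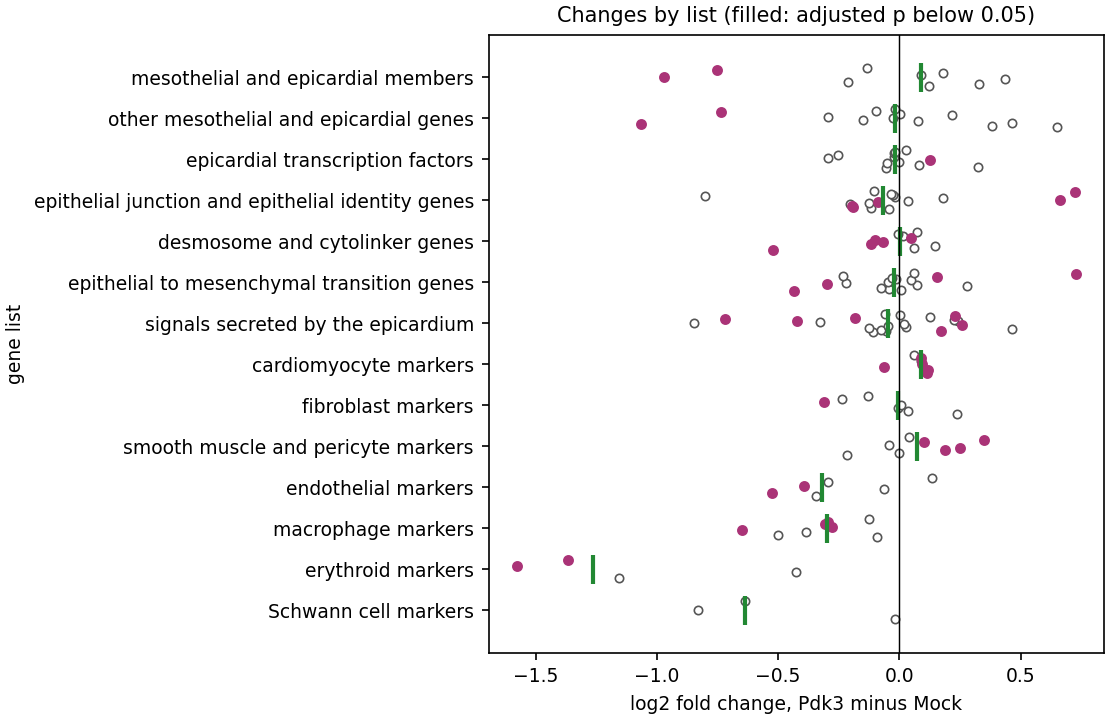
Log2 fold change, Pdk3 minus Mock, of each tested gene by list, with filled points past the threshold and green bars at the list medians. The members and the lists down to the epicardial signals have medians between -0.07 and 0.09, while the endothelial, macrophage, erythroid and Schwann cell lists have medians from -0.30 to -1.26. The Schwann cell list holds 3 tested genes, none of them past the threshold.

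Among markers of other heart cells, the called macrophage, endothelial and erythroid genes and the 1 called fibroblast gene were lower in the Pdk3 libraries. The called smooth muscle and pericyte genes were higher. Counts per list stand beside 11.3% lower and 11.7% higher over all genes tested (limma). Of 8 macrophage markers 4 were lower and 0 higher, C1qa, Csf1r, Cd68 and Mrc1, with C1qa at -0.65. Their summed values were 1391 to 1457 in the mock libraries and 1164 to 1208 in the Pdk3 libraries. Of 6 tested endothelial markers 2 were lower, Cdh5 and Tie1, with sums of 979 to 1039 against 921 to 944. By sign, 5 of the 6 lay below 0, against about 51.5% of all genes tested, and 1 above. That gene, Kdr, had 467 and 502 with mock and 536 and 527 with Pdk3, and did not pass (limma adjusted p = 0.0611). Of 4 tested erythroid rows 2 were lower, both labelled Hba-a2 and so not reliably told apart, with sums of 87 to 94 against 45 to 46. Schwann cell markers gave 0 calls among 3 tested (limma, 0 higher and 0 lower), with sums of 215 to 233 against 174 to 203. Egr2, which made up most of each sum, had 145 and 148 against 134 and 156, and Erbb3 had 41 and 31 against 16 and 24. Of 7 tested fibroblast markers 1 was lower, Dcn, and 0 were higher, with sums of 5633 to 5696 against 5481 to 5650. The median log2 fold change of the fibroblast list was -0.01, with 4 genes below 0 and 3 above. Of 8 tested smooth muscle and pericyte markers 4 were higher and 0 lower, with sums of 6073 to 6162 against 6611 to 6744. The higher genes Cnn1, Tagln and Cspg4 had log2 fold changes of 0.35, 0.25 and 0.19. Des, the fourth, had 0.10, within the range of the cardiomyocyte markers given below. The rest of the smooth muscle and pericyte list, Myh11, Rgs5, Pdgfrb and Notch3, had log2 fold changes between -0.21 and 0.04, and none passed. None of the genes of these marker lists in the table was at 0 in every library. Of the 7 cardiomyocyte markers 4 were higher (Myh7, Myh6, Actn2 and Nppa) and 1 was lower (Ryr2), with log2 fold changes of all 7 between -0.06 and 0.12. Scaled to ribosomal protein genes, the calls of the 4 higher genes ended and that of Ryr2 held (limma). The part of these markers in the changes of Krt19 and Lrrn4 was not tested. In such bulk samples, fewer cells of a type and less RNA per cell cannot be told apart.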

How the data were processed

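Total RNA of 4 libraries was sequenced after stranded mRNA library preparation, per the labels' protocols. Per the submitters' processing notes, the tools were STAR 2.6.1d, featureCounts 1.6.5 (Subread), DESeq2 1.26.0, Trimmomatic 0.39 and FastQC, with build rn6 and no settings. The deposited values are used as a score: gene counts that the authors normalised between libraries and rounded to whole numbers. The steps that rounding left gave scaling factors of 1.0255 and 1.0567 for the mock and 0.9246 and 0.9627 for the Pdk3 libraries, used to return to approximate reads. The sources used here do not give the strand setting or the treatment of duplicate reads.

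Values were tested as log2(value + 1) with limma 3.58.1 in R 4.3.3 (intensity trend, group as the only term, 2 residual degrees of freedom, prior 5.56), two-sided, with Benjamini-Hochberg adjustment over all 12838 genes tested and a threshold of 0.05. Fold changes on this scale understate those of low genes. The fit was tested on simulated data. Ratios, scipy 1.17.1, used exact permutation. Intervals from reads cover counting error only, because without molecular identifiers a read is not an independent molecule. The floor at counting noise uses an exact binomial p of summed reads.

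The members and lists were chosen with earlier results of these data known. Named genes are all members, tested keratins and uroplakins, and from each list up to 3 called genes a direction by smallest adjusted p, or 2 of highest mean where none passed. Genes near the members, ratios, promoters and genes listed as below 10 or at 0 are outside that rule and were chosen after values were seen. So were Ppl, Des, Mrc1, Nppa, Epcam, Cdh1, Esrp1, Esrp2, Cgn, Kdr, Myh11, Rgs5, Pdgfrb and Notch3. Pdk3 is given as the check of the labels. A listed gene is not reported here. The alternatives tried were each library left out, a replicate block, scaling to equal totals, to quantiles and to 62 ribosomal protein genes, no filter and a minimum of 50, pseudocounts of 0.5 and 8, no trend, the floor and a threshold of 0.01.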

Additional observations from a re-analysis of the deposited data

How the results depend on the processing

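The direction and call of all 9 tested members held under 9 alternatives that keep all 4 libraries, and also at the threshold of 0.01. For the minimum of 50 this covers the 5 members that pass it. Scaling to ribosomal protein genes was the exception, where Tbx18 passed as well. With a library left out, 0 members and 0 genes in all were called in either direction, and without Pdk3 1 the signs of Msln and Upk1b turned (Msln -0.042 to 0.221 and Upk1b -0.060 to 0.416 over the libraries left out). Over all genes, 1496 were higher and 1449 lower. No filter on low values gave 737 and 539, no intensity trend 526 and 325, and a threshold of 0.01 gave 766 and 576. Flooring at counting noise gave 957 lower, and scaling to ribosomal protein genes 3076 lower. The cause of these shifts was not tested, apart from leaving out a library, which leaves 1 residual degree of freedom, and the threshold. With the replicate block, 1374 genes were higher and 1298 lower, and Krt19 and Lrrn4 passed (adjusted p = 0.00848 and 0.00462). Same-numbered libraries deviated together with a correlation of 0.0384 over 12838 genes, and the labels tie the numbers to nothing. Of 38 other named gene rows past the threshold, calls ended for 27 without a trend, 21 without a filter, 20 at the threshold of 0.01, 6 scaled to ribosomal protein genes (Tbx20, Macf1, Vim, Myh7, Myh6 and Actn2), 3 floored at counting noise (Tbx20, Jup and Tgfb1), 2 under quantiles (Dsp and Macf1), 1 with the block (Tgfb1) and 0 under equal totals, both pseudocounts or the minimum of 50, which 3 rows did not enter. Calls of 8 held under each of these that was run on them, among them Krt80, Thbd, Wnt5a and Tgfbr3. Signs turned for Macf1 scaled to ribosomal protein genes (-0.019). With a library left out they turned for genes that had not passed: Krt10 (-0.348 to 0.188), Krt23 (-0.302 to 0.113) and Egr2 (-0.128 to 0.090). Depth limits Wt1 and Upk3b most.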
